A study of Homo sapiens with 9 samples.

Results

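The methionine adenosyltransferase genes MAT1A, MAT2A and MAT2B were examined in Huh7, an established cell line from a human liver cancer (hepatocellular carcinoma). They were chosen by symbol, as 3 of the 27800 gene symbols listed in the deposited table, and all 3 were among the 13573 genes that passed a filter of at least 1 TPM in at least 3 libraries. TPM, the unit of the table, is a level per transcript length within a library, so levels of different genes can be compared. The cells were grown in serum-supplemented DMEM, and total RNA was sequenced from 9 libraries, 3 per group. One group received vehicle, one received 5 uM FIDAS-5 (labelled FIDAS5) for 48 h, and one received 0.5 uM JQ1 for 48 h. The sources used here name neither the vehicle nor its duration, nor do they tie each library to a culture of its own. The p-values therefore set group differences only against the scatter between these libraries, and that scatter may be technical. FIDAS-5 is an inhibitor of the MAT2A enzyme, and JQ1 is an inhibitor of the BET bromodomain proteins, readers of acetylated chromatin. Neither acts by deleting or silencing a MAT gene, so MAT transcript levels do not check the labels.

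Methionine adenosyltransferases join methionine and ATP into S-adenosylmethionine (SAM), the methyl donor of most cellular methylation. MAT1A encodes the catalytic subunit of the adult hepatocyte. MAT2A encodes the catalytic subunit of most other tissues and of fetal liver, and liver cancers typically show low MAT1A and high MAT2A. MAT2B encodes a regulatory subunit that binds the MAT2A protein and has no catalytic activity of its own. The MAT2A messenger RNA is itself regulated by SAM: the methyltransferase METTL16 binds hairpins in its 3′ UTR and, when SAM is scarce, promotes splicing of its last intron and stability of the message.

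The METTL16 recognition nonamers are shown because they are the sequence feature that sets MAT2A apart from MAT1A and MAT2B. On the transcript strand, TACAGAGAA or TACAGAAAA occurred 6 times in the 3′ UTR of the longest protein-coding MAT2A transcript of GENCODE 29 (2819 nt). Neither nonamer occurred in the longest protein-coding transcripts of MAT1A (3410 nt) or MAT2B (3409 nt). Of 19702 protein-coding genes, 7.69% held at least 1 such nonamer, 0.102% held at least 3, and 2 genes held at least 6. The 6 MAT2A sites are printed 5′ to 3′ with 10 flanking bases on each side, from GRCh38 (hg38), with the nonamer in capitals.
MAT2A chr2:85543802-85543830 (+): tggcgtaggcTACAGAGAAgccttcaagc
MAT2A chr2:85544589-85544617 (+): tgtgatgtcaTACAGAGAAgtcacagggc
MAT2A chr2:85544774-85544802 (+): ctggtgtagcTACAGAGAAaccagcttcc
MAT2A chr2:85544889-85544917 (+): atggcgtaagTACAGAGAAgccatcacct
MAT2A chr2:85545004-85545032 (+): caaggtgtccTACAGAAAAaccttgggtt
MAT2A chr2:85545112-85545140 (+): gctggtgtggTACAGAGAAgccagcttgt
A match is a description of these letters, and binding of METTL16 was not measured in these libraries.

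MAT1A lies on chromosome 10 at 80271820 to 80289658, minus strand, MAT2A on chromosome 2 at 85539168 to 85545281, plus strand, and MAT2B on chromosome 5 at 163503064 to 163519354, plus strand (RefSeq, GRCh38.p14). RefSeq lists 2 transcripts for MAT2B, with starts at 163503064 and 163505619, and 1 each for MAT1A and MAT2A. The 250 bases before the annotated start are printed below 5′ to 3′ on the gene's strand, from RefSeq, with CG dinucleotides in capitals, because the 3 genes differ in them. For MAT2B the region before the second start is shown.
MAT1A chr10:80289659-80289908 (-): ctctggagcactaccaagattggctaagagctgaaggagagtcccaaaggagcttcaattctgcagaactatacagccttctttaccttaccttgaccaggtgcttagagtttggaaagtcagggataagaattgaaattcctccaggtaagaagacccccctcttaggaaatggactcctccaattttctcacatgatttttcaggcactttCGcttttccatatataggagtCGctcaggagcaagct
MAT2A chr2:85538918-85539167 (+): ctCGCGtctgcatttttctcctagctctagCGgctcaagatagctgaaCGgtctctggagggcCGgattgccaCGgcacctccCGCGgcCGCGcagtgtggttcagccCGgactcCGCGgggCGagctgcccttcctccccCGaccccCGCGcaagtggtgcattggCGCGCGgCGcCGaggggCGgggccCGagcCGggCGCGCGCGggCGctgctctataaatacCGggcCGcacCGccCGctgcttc
MAT2B chr5:163505369-163505618 (+): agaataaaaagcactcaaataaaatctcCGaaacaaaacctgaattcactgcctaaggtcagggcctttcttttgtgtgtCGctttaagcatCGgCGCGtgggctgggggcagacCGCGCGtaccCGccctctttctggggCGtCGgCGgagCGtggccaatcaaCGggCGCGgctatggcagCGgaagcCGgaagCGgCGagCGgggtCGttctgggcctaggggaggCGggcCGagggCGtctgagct
The MAT2A region held 34 CG dinucleotides, more than in 93.2% of 35116 promoters, whose median was 11. The MAT2B region before the second start held 25 (more than in 78.4%), and the region before the first start held 1. The MAT1A region held 2, and 14.7% of promoters held fewer. The ratio of observed to expected CG was 1.06 for MAT2A, 1.09 for the second MAT2B start and 0.160 for MAT1A. On both strands, the GC box GGGCGG was found 2 times for MAT2A and once for the second MAT2B start, and in 42.6% of all promoters. CCAAT was found 2 times for MAT1A and once each for MAT2A and the second MAT2B start (32.0% of promoters). TATAAA was found once for MAT2A (10.7%), and CACGTG in none of them (6.34%). Methylation and factor binding were not measured in these libraries.

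MAT2A was the most abundant of the 3 transcripts, MAT2B came next and MAT1A was the lowest, in all 9 libraries and without overlap of their TPM ranges. MAT2A ranged from 67.6 to 108 TPM and exceeded between 93.7% and 96.0% of tested protein-coding genes. MAT2B ranged from 12.4 to 32.0 TPM, and MAT1A from 2.10 to 4.67 TPM. After FIDAS-5, MAT1A rose 1.71-fold in mean TPM, while MAT2A did not pass the test. MAT2B was lower in mean TPM after both compounds, without passing the test in either comparison.

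**Figure D1:**
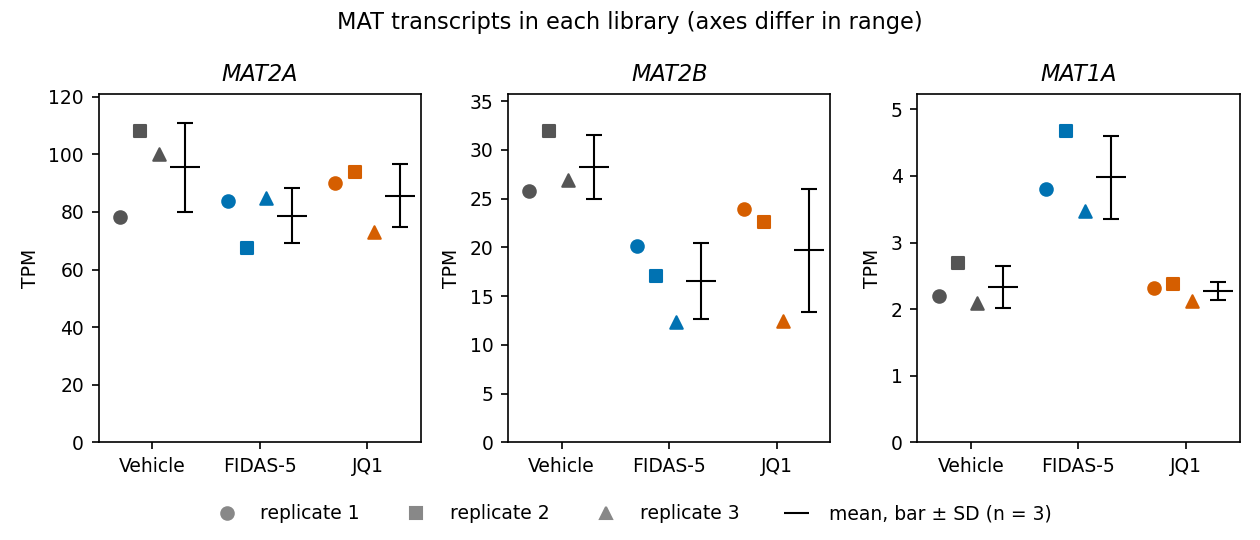
TPM of MAT2A, MAT2B and MAT1A in each of the 9 libraries, by group (points, with replicate number by shape; bars are mean ± SD, n = 3), each panel with its own axis from 0. The 3 FIDAS-5 libraries lie above all others for MAT1A, and the vehicle libraries lie above all treated libraries for MAT2B.

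MAT1A, the hepatocyte catalytic subunit, stood at 2.19, 2.69 and 2.10 TPM in the vehicle libraries. It stood at 3.80, 4.67 and 3.47 TPM after FIDAS-5, and at 2.32, 2.37 and 2.12 TPM after JQ1. All 3 FIDAS-5 libraries were above every vehicle and every JQ1 library, while the JQ1 values lay within the vehicle range. The means were 2.33 ± 0.315 TPM with vehicle, 3.98 ± 0.624 with FIDAS-5 and 2.27 ± 0.130 with JQ1 (SD, n = 3 each). On the log2(TPM + 1) scale, which understates the change of low genes, MAT1A rose by 0.58 after FIDAS-5 (SE 0.13, 95% interval 0.28 to 0.88, limma adjusted p = 0.0159). The GC content of MAT1A is above that of 71.8% of tested genes with a GC value. With each library's trend along GC removed, the difference was 0.44 (limma adjusted p = 0.0421). Without FIDAS-5 replicate 2 it was 0.48 (limma adjusted p = 0.0498). Without vehicle replicate 3 the difference was 0.53 and did not pass (limma adjusted p = 0.0706). Between JQ1 and vehicle it was -0.02 (interval -0.32 to 0.28, limma adjusted p = 0.919). The difference of JQ1 from FIDAS-5 was -0.60 (interval -0.90 to -0.30, limma adjusted p = 0.00813), and the mean TPM ratio was 0.571. The doses of the 2 compounds differ, and each was used at 1 dose and 1 time.

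Those calls read against all tested genes as follows. Of the 3 MAT genes, 1 was called higher after FIDAS-5, against 12.6% of the 13573 tested genes, and limma called none lower, against 7.60%. MAT2B was the 1 MAT gene that was lower at an unadjusted p under 0.05. Libraries of MAT1A did not overlap between FIDAS-5 and vehicle, which held in the higher direction for 20.9% of tested genes. In JQ1 against vehicle limma called no MAT gene, and none had an unadjusted p under 0.05, where 19.0% of tested genes were called higher and 19.4% lower. In JQ1 against FIDAS-5, MAT1A was called lower, against 18.5% of tested genes, and no MAT gene was called higher, against 16.4%. Its libraries also did not overlap there, as for 25.0% of tested genes in that direction. A call of this kind was thus common among tested genes.

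MAT2A, the subunit that FIDAS-5 inhibits, stood at 78.4, 108 and 100 TPM in the vehicle libraries. It stood at 83.9, 67.6 and 84.8 TPM after FIDAS-5, and at 90.0, 93.9 and 73.1 TPM after JQ1. Each pair of groups overlapped, and vehicle replicate 1 lay below 2 of the FIDAS-5 libraries. The means were 95.5 ± 15.4, 78.7 ± 9.66 and 85.7 ± 11.0 TPM (SD, n = 3 each). The log2 difference from vehicle was -0.27 after FIDAS-5 (95% interval -0.66 to 0.12, limma adjusted p = 0.305) and -0.15 after JQ1 (interval -0.54 to 0.24, limma adjusted p = 0.519). The compounds differed by 0.12 (interval -0.27 to 0.51, limma adjusted p = 0.629). Leaving out 1 library moved the difference from vehicle between -0.40 (without vehicle replicate 1) and -0.16 (without FIDAS-5 replicate 2) for FIDAS-5. For JQ1 it moved between -0.28 (without vehicle replicate 1) and -0.04 (without JQ1 replicate 3). None of these fits called MAT2A, which does not show that its level was unchanged. GENCODE 29 lists 2 protein-coding, 3 retained-intron and 1 processed transcript for MAT2A. The annotation behind the deposited values is not given in the sources used here, so whether a value per gene sums all these forms is not known. With only a value per gene, the spliced and intron-retaining forms that METTL16 is known to shift cannot be told apart here.

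MAT2B, the regulatory subunit, stood at 25.8, 32.0 and 26.9 TPM in the vehicle libraries. It stood at 20.1, 17.1 and 12.4 TPM after FIDAS-5, and at 24.0, 22.6 and 12.5 TPM after JQ1. Every vehicle library was above every treated library, and the lowest library of each treated group was the one numbered 3. In the lower direction such a separation was found for 18.4% of tested genes in FIDAS-5 against vehicle and 26.2% in JQ1 against vehicle. Mean levels were 28.2 ± 3.27 TPM with vehicle, 16.5 ± 3.89 with FIDAS-5 and 19.7 ± 6.29 with JQ1 (SD, n = 3 each), ratios to vehicle of 0.586 and 0.698. The log2 difference was -0.76 after FIDAS-5 (SE 0.26, 95% interval -1.34 to -0.17), and it did not pass after adjustment over all genes (limma adjusted p = 0.0730). After JQ1 it was -0.54 (interval -1.13 to 0.04, limma adjusted p = 0.129), and between the compounds 0.21 (interval -0.38 to 0.80, limma adjusted p = 0.569).

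The MAT2B result depended on the setting. FIDAS-5 against vehicle passed in 7 of 11 alternative fits, for example with TPM rescaled over protein-coding genes (-0.73, limma adjusted p = 0.0190). JQ1 against vehicle passed in 4 of 11, but without JQ1 replicate 3 its difference was -0.26 (limma adjusted p = 0.336). The libraries numbered 3 of both treated groups also held the lowest shares of TPM in protein-coding genes, within a range of 27.6% to 34.0% over the 9 libraries. FIDAS-5 replicate 2, at 28.6%, was close to FIDAS-5 replicate 3, at 28.3%. Rescaled over protein-coding genes, MAT2B stood at 90.7 ± 7.71, 54.8 ± 9.51 and 61.1 ± 13.9 rescaled TPM (SD, n = 3 each) with vehicle, FIDAS-5 and JQ1. Replicate 3 was still the lowest of each treated group, at 43.9 after FIDAS-5 and 45.1 after JQ1. The median GC content of the MAT2B transcripts in GENCODE 29 is 40.0%. That is lower than in all but 9.78% of the 13042 tested genes with a GC value. With each library's trend along GC removed, the differences were -0.52 after FIDAS-5 (limma adjusted p = 0.00493) and -0.39 after JQ1 (limma adjusted p = 0.0114).

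**Figure D2:**
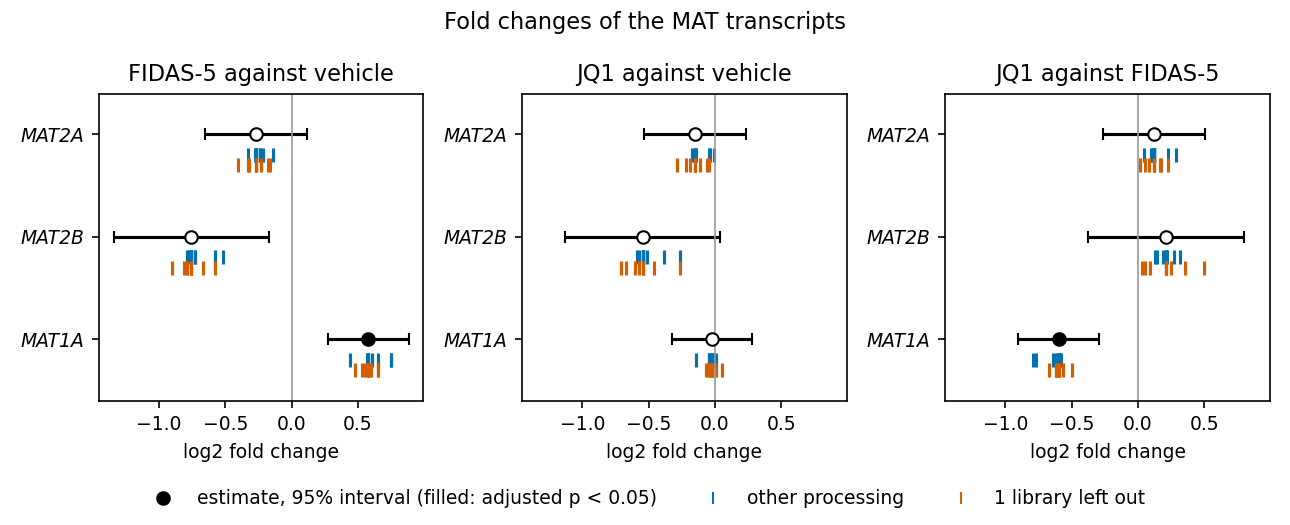
Log2 fold changes on the log2(TPM + 1) scale with 95% intervals from the limma fit over 9 libraries, for the 3 MAT genes in the 3 comparisons (filled points passed the test; blue ticks are other processing settings and orange ticks are fits without 1 library). The MAT1A intervals exclude 0 in FIDAS-5 against vehicle and in JQ1 against FIDAS-5, and every MAT2A interval crosses 0. The MAT2B interval in FIDAS-5 against vehicle (-1.34 to -0.17) also excludes 0, although MAT2B did not pass after adjustment over all genes.

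MAT2A was far more abundant than MAT1A in every library, and the ratio between them was lower in the FIDAS-5 libraries, in a test that cannot pass at this number of libraries. The ratio of MAT2A to MAT1A TPM within a library, which does not depend on how the library is scaled, was 35.7, 40.3 and 47.7 with vehicle. It was 22.1, 14.5 and 24.5 after FIDAS-5, and 38.8, 39.6 and 34.4 after JQ1. The FIDAS-5 ratios all lay below the others, and the JQ1 ratios overlapped those of vehicle. MAT1A made up 2.06% to 2.72% of the summed MAT1A and MAT2A TPM with vehicle, 3.93% to 6.47% after FIDAS-5 and 2.46% to 2.82% after JQ1. The tested log2 ratio was a difference of log2(TPM + 1) values, so the added 1 leaves some dependence on library scaling. Its mean differed by -0.85 between FIDAS-5 and vehicle (exact two-sided permutation p = 0.1, adjusted 0.15 over 6 ratio tests). The smallest p that 3 libraries against 3 allow is 0.10. JQ1 differed from vehicle by -0.13 (exact permutation p = 0.4, adjusted 0.48) and from FIDAS-5 by 0.72 (exact permutation p = 0.1, adjusted 0.15). With no added TPM the differences were -1.04 for FIDAS-5 against vehicle, -0.12 for JQ1 against vehicle and 0.92 for JQ1 against FIDAS-5.

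The ratio of catalytic MAT2A to regulatory MAT2B was 3.03, 3.38 and 3.72 with vehicle. It was 4.17, 3.95 and 6.84 after FIDAS-5, and 3.76, 4.15 and 5.87 after JQ1. Every treated library was above every vehicle library, and replicate 3 was the highest of each group. On the log2(TPM + 1) scale, the difference in mean log2 ratio from vehicle was 0.49 for FIDAS-5 and 0.39 for JQ1 (exact permutation p = 0.1 and adjusted p = 0.15 for each). It was 0.25 without FIDAS-5 replicate 3 and 0.22 without JQ1 replicate 3 (exact permutation p = 0.2 for each). The compounds did not separate from each other, with a difference of -0.09 (exact permutation p = 0.6, adjusted 0.6).

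**Figure D3:**
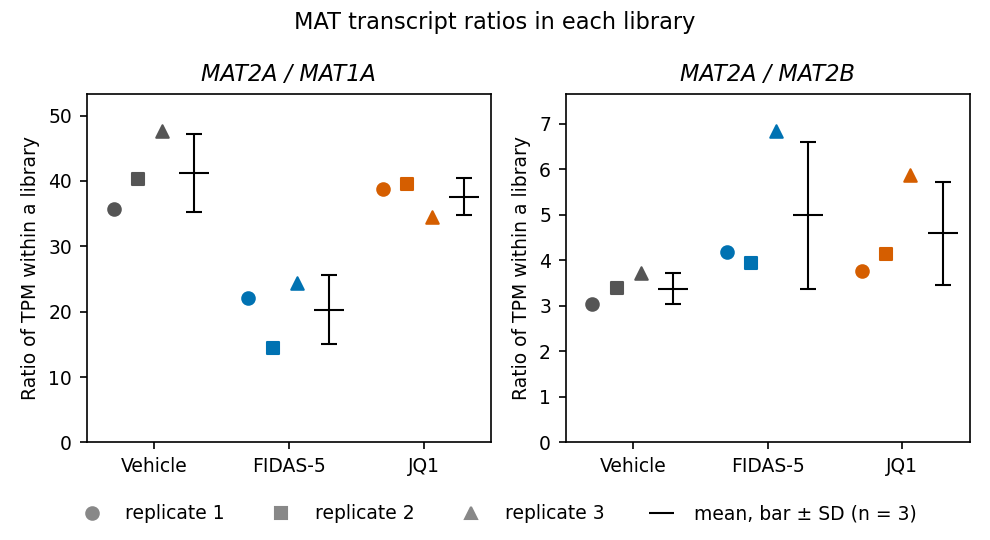
Ratios of MAT2A to MAT1A TPM and of MAT2A to MAT2B TPM within each of the 9 libraries, by group (points are libraries, bars are mean ± SD, n = 3 a group). The FIDAS-5 libraries hold the lowest MAT2A to MAT1A ratios, at 14.5 to 24.5, and the vehicle libraries the lowest MAT2A to MAT2B ratios, at 3.03 to 3.72.

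Genes that supply methionine were described from a list of 9, all tested. Counts of this and the following lists stand against 12.6% of all tested genes called higher and 7.60% called lower after FIDAS-5, and 19.0% and 19.4% after JQ1. After FIDAS-5, limma called 2 higher and none lower (1 lower at an unadjusted p under 0.05, and 1 called lower without JQ1 replicate 3), with a median log2 difference of 0.30 against -0.02 over all tested genes. SLC3A2, the heavy chain of the large neutral amino acid transporter that imports methionine, rose from 123 ± 14.4 to 418 ± 119 TPM (log2 1.71, limma adjusted p = 0.000819). SLC43A2, another amino acid transporter, rose by 1.15 (limma adjusted p = 0.00134) from 0.624 TPM. SLC7A5 and SLC7A8 of the same list were not called, at 0.56 (limma adjusted p = 0.305) and -0.16 (limma adjusted p = 0.616). After JQ1, 4 were called higher and 2 lower, with a median of 0.57 against -0.01 over all tested genes. The count of higher genes was 2 without vehicle replicate 2 or 3 or without JQ1 replicate 1 or 2, and the count of lower genes was 1 without vehicle replicate 2 or 3. The betaine-homocysteine methyltransferases went opposite ways: BHMT rose by 1.20 (limma adjusted p = 0.00269) and BHMT2 fell by 1.23 (limma adjusted p = 0.000997). BHMT was close to the 1 TPM filter, at 0.704 to 1.33 TPM with vehicle and 0.501 to 0.756 TPM after FIDAS-5. It passed the filter only with its JQ1 libraries, at 2.19 to 4.51 TPM. BHMT2 was more abundant, at 13.7 to 22.4 TPM with vehicle and 5.99 to 7.51 TPM after JQ1.

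Downstream of SAM, 1 of 4 tested genes of SAM use and transport was called higher after FIDAS-5 and none lower, and after JQ1 1 was higher and 3 lower (medians 0.08 and -0.77). The 1 higher after JQ1 was GAMT, which makes creatine with SAM (0.34, limma adjusted p = 0.0341), and 13 of 20 other settings did not call it, among them the fits without vehicle replicate 1 or 3, FIDAS-5 replicate 3 or any 1 JQ1 library. GNMT, the abundant SAM-consuming enzyme of adult liver, was not tested, at a mean of 0.151 TPM with vehicle. NNMT, which methylates nicotinamide, ranged from 2.34 to 3.31 TPM with vehicle and from 4.14 to 4.58 TPM after FIDAS-5 (log2 0.55, limma adjusted p = 0.0171), and was listed at 0 in all 3 JQ1 libraries. Its FIDAS-5 call was lost without vehicle replicate 3 (limma adjusted p = 0.0767) or FIDAS-5 replicate 1 (limma adjusted p = 0.0555). PEMT, which makes phosphatidylcholine with SAM, fell by 1.03 after JQ1 (limma adjusted p = 0.00101). Of the 6 genes that remove S-adenosylhomocysteine or feed transsulfuration, 1 was called lower after each compound and none higher (medians -0.06 and -0.04), while 1 was called higher after JQ1 without JQ1 replicate 3. CBS, the entry enzyme of transsulfuration, went from 35.8 ± 3.31 to 15.7 ± 0.722 TPM after JQ1 (log2 -1.14, limma adjusted p = 0.000167) and stood at 40.2 ± 2.76 TPM after FIDAS-5. AHCY, which hydrolyses S-adenosylhomocysteine, was the one called lower after FIDAS-5 (-0.45, limma adjusted p = 0.0239), and 10 of 20 other settings did not call it, among them the fits without vehicle replicate 2 or 3 or any 1 FIDAS-5 library. Of the 8 genes of polyamine synthesis and methionine salvage, limma called none after FIDAS-5 (1 higher and 2 lower at an unadjusted p under 0.05), and 1 was called higher and 3 lower after JQ1 (medians -0.04 and -0.61). The 3 lower calls after JQ1 became 0 without vehicle replicate 3 and 1 without vehicle replicate 1 or JQ1 replicate 2, and the FIDAS-5 count became 3 lower without JQ1 replicate 3.

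Among 12 genes that process MAT transcripts or sense SAM, 1 was called lower after FIDAS-5 and 3 after JQ1, with none higher (medians -0.17 and -0.09), although 2 were called higher after JQ1 without JQ1 replicate 3. METTL16, which reads the MAT2A hairpins printed above, stood at 4.84 ± 0.439 TPM with vehicle and 4.74 ± 0.376 after FIDAS-5 (log2 -0.02, limma adjusted p = 0.929). After JQ1 it fell to 2.80 ± 0.644 TPM (log2 -0.63, limma adjusted p = 0.00933). HNRNPD, which encodes the RNA-binding protein AUF1, fell from 54.0 ± 1.01 to 28.9 ± 3.54 TPM after FIDAS-5 (log2 -0.89, limma adjusted p = 0.00745), and by 0.81 after JQ1 (limma adjusted p = 0.00608). NUDT21, a subunit of the cleavage factor that helps choose polyadenylation sites, differed by -0.79 after FIDAS-5 without passing (limma adjusted p = 0.132). ELAVL1, which encodes the RNA-binding protein HuR, differed by -0.18 (limma adjusted p = 0.495).

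Of 14 transcription factors studied in connection with MAT or liver genes, 13 were tested, and MYB was not. After FIDAS-5, 4 were called higher and 1 lower, and after JQ1 4 were higher and 3 lower (medians 0.47 and 0.11). The 1 lower after FIDAS-5 was SP1, the factor that binds GC boxes (-0.88, limma adjusted p = 0.0174), and fits that left out vehicle replicate 2 or 3, or FIDAS-5 replicate 2 or 3, did not call it. FOS, an AP-1 subunit, rose by 1.46 after FIDAS-5 (limma adjusted p = 7.69e-05) and fell by 0.52 after JQ1. MAF rose after both compounds, from 0.915 ± 0.309 TPM to 7.03 ± 1.75 after FIDAS-5 and 19.6 ± 7.65 after JQ1. HNF4A, a master regulator of hepatocyte genes, rose from 73.2 ± 7.52 to 138 ± 0.213 TPM after JQ1 (log2 0.91, limma adjusted p = 0.00123). All these lists were chosen with earlier results of these data known.

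**Figure D4:**
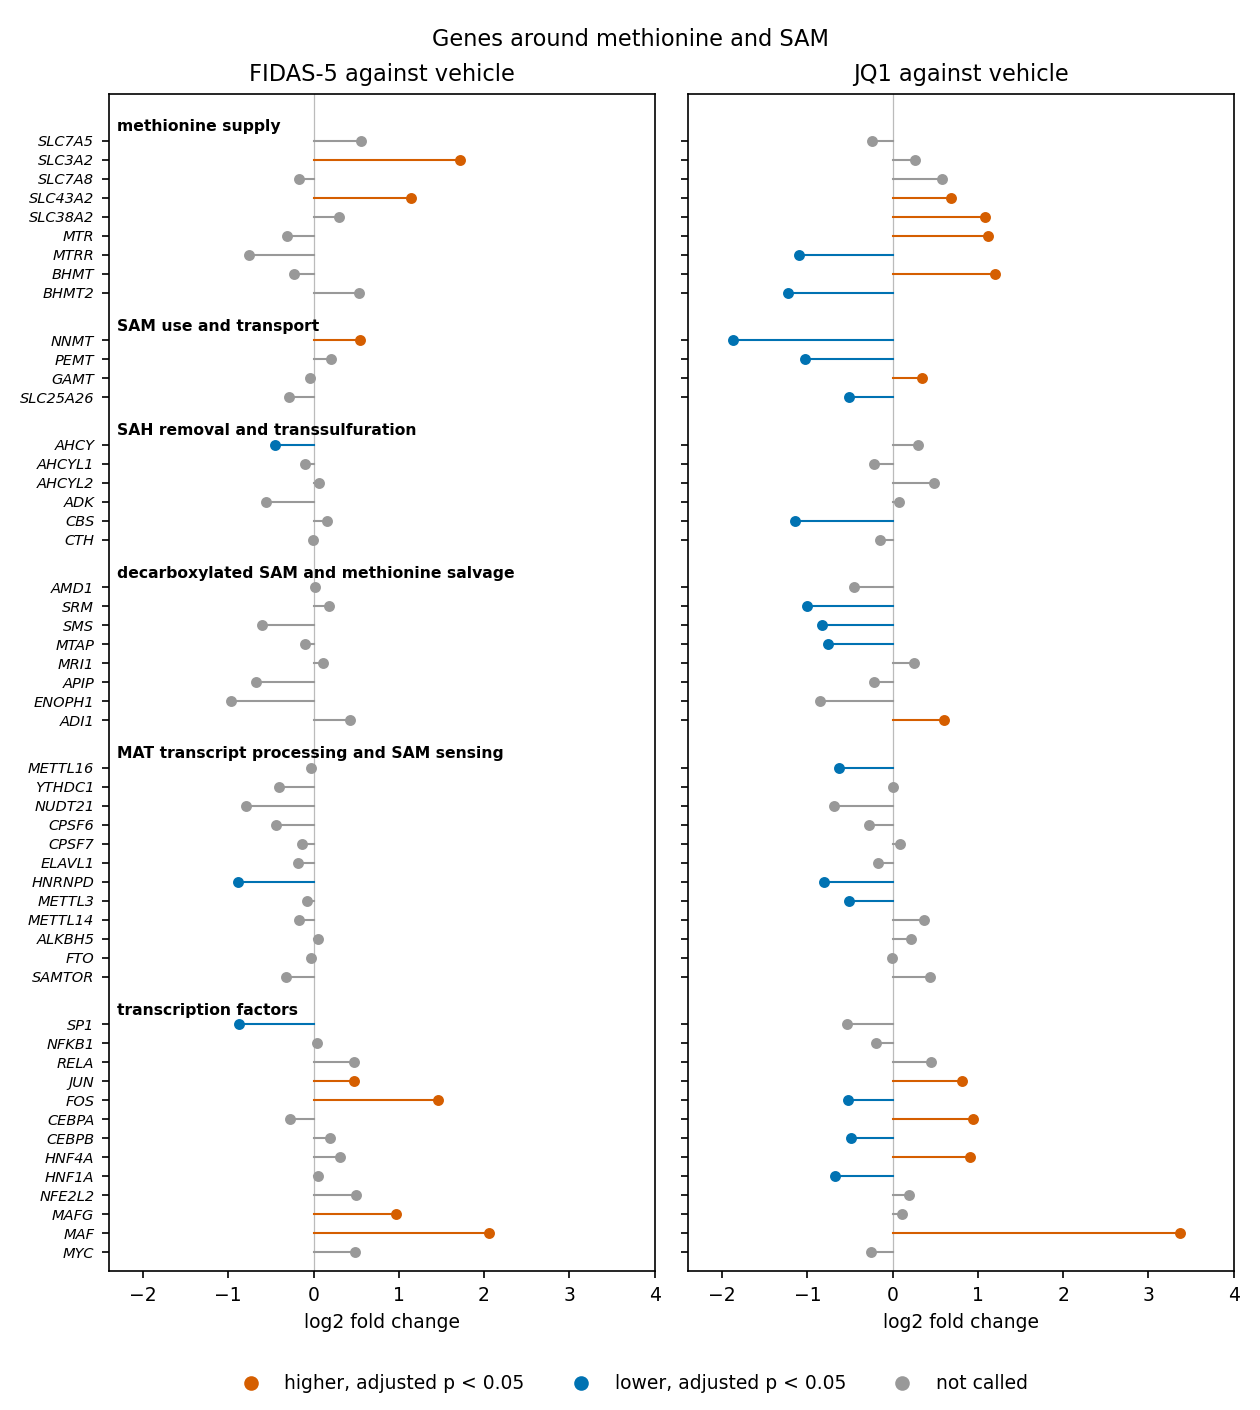
Log2 fold changes on the log2(TPM + 1) scale for the tested genes of the 6 lists, FIDAS-5 against vehicle on the left and JQ1 against vehicle on the right, on one axis range; both panels share the vehicle libraries. SLC3A2 and MAF have the longest bars after FIDAS-5, and MAF and NNMT after JQ1, where NNMT is listed at 0 in all 3 libraries and its bar is set by the added 1 TPM.

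Genes beside the MAT genes did not follow one pattern. GGCX, the vitamin K-dependent carboxylase, overlaps the 3′ end of MAT2A by 562 bases. It stood at 41.4 ± 1.18 TPM with vehicle, 56.2 ± 1.66 after FIDAS-5 and 39.5 ± 2.63 after JQ1, whereas MAT2A was lower in mean TPM after FIDAS-5. Its FIDAS-5 difference of 0.43 passed (limma adjusted p = 0.0234) but not in 6 of 20 other settings. Whether the counting used strand is not given in the sources used here, so reads from the shared bases cannot be assigned with certainty. PARTICL, a long noncoding RNA that ends 281 bases before MAT2A and was added after its values were seen, was at 0.393 to 1.27 TPM and was not tested. HMMR, a mitotic hyaluronan-binding protein whose gene lies 11123 bases from MAT2B, fell from 12.4 ± 1.76 to 4.82 ± 1.32 TPM after FIDAS-5 (log2 -1.22, limma adjusted p = 0.00504) and to 4.31 ± 1.22 after JQ1 (log2 -1.35, limma adjusted p = 0.00152). ANXA11, 66012 bases from MAT1A, differed by 0.41 after FIDAS-5 (limma adjusted p = 0.0308), and 11 of 20 other settings did not call it. The other neighbours, DYDC1, SH2D6 and TENM2, were not tested. DYDC1 lies 46355 bases from MAT1A, SH2D6 102139 bases from MAT2A and TENM2 3459675 bases from MAT2B.

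The genes with the most similar profile over the 9 libraries were found by the root mean square difference of centred log2(TPM + 1), which is a description without a test. For MAT1A they were ZMAT5 (0.081), NAT9 (0.108), NDUFA3 (0.111), G6PC (0.125) and TWF2 (0.127), against a median of 0.474 over 11477 genes. For MAT2A they were ANAPC7 (0.071), PARN (0.075), KANSL2 (0.080), DNAJB1 (0.082) and EYA3 (0.087), against 0.398 over 7245 genes. For MAT2B they were SRSF2 (0.075), SPDL1 (0.088), NAE1 (0.089), SRSF7 (0.090) and HDAC2 (0.097), against 0.491. All 9 libraries enter each value.

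The cells carried the markers of their label. The 9 hepatocyte markers were ALB, APOA1, APOA2, APOB, TTR, SERPINA1, TF, AFP and GPC3. Their summed TPM ranged from 5466 to 6593 with vehicle, 5686 to 7544 after FIDAS-5 and 11831 to 16339 after JQ1. With AFP and GPC3 among them, the sum is not a measure of adult hepatocyte state. Of those 9 genes, 3 were called higher and none lower after FIDAS-5, and 7 higher and 1 lower after JQ1. The 1 lower was TTR, at a mean of 298 TPM with vehicle and 89.3 after JQ1 (log2 -1.73, limma adjusted p = 1.64e-05). AFP was not called after JQ1 (log2 -0.13, limma adjusted p = 0.829). GPC3, among the 7 higher, went from a mean of 323 TPM with vehicle to 1862 after JQ1 (log2 2.53, limma adjusted p = 1.45e-05). Summed leukocyte markers went from 114 to 141 TPM with vehicle to 253 to 312 after FIDAS-5 and 19.2 to 28.0 after JQ1. LYZ was the largest part, at a mean of 113, 253 and 12.4 TPM in that order, and PTPRC, which defines leukocytes, was under 1 TPM in all 9 libraries. Summed fibroblast and endothelial markers ranged from 8.62 to 11.2 TPM with vehicle, 16.9 to 18.5 after FIDAS-5 and 2.91 to 3.47 after JQ1, with PECAM1 at a mean of 8.69, 16.1 and 1.43 TPM and CDH5 at 0. Cholangiocyte markers overlapped between vehicle and FIDAS-5, at 26.3 to 32.3 and 24.4 to 39.6 TPM, with KRT7 at 0, and stood at 31.9 to 48.5 after JQ1. The part of these marker differences in the MAT1A result was not tested. A change of RNA per cell and a change in the share of Huh7 cells that express a gene cannot be told apart in such bulk libraries.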

How the data were processed

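The authors deposited TPM per gene symbol for 9 libraries, made with Salmon against hg38, per the submitters' processing notes; the Salmon version, annotation and strand setting are not given in the sources used here. TPM keeps no read counts, so depth is unknown and no interval of counting error is given. Values were transformed to log2(TPM + 1). The 13573 genes that reached 1 TPM in 3 or more libraries were fitted with limma 3.58.1 in R 4.3.3 over all 9 libraries, with 1 mean per group, 6 residual and 2.86 prior degrees of freedom, and called at a two-sided Benjamini-Hochberg adjusted p under 0.05. Log2 ratios, taken as differences of log2(TPM + 1), were tested by exact permutation. The fit was tested on simulated data. Figures used Python 3.11.15 and matplotlib 3.10.9.

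Symbols matched RefSeq as current names for 25681 genes, as synonyms for 1134 and not at all for 985. The named genes were the 3 MAT genes, members of the gene lists (called ones first), the nearest protein-coding gene on each side, and the 5 most similar profiles among genes of at least 5 TPM (1 TPM for MAT1A) with an established symbol; PARTICL was added later, and results of 1 gene are not reported here. The members and lists were chosen with earlier results of these data known. Same-numbered JQ1 and FIDAS-5 libraries deviated from their group means together (correlations over genes 0.260, 0.102 and 0.422). No such correlation is given for differently numbered libraries, and the labels give no source for a pairing. Whether the numbers are pairs is therefore not known. Printed values come from the fit without the replicate number as a block, and values with the block are in the closing section. Alternatives were another pseudocount (0.1), no filter or 5 TPM, median-of-ratios and quantile scaling, rescaling over protein-coding genes, only the 6 libraries compared, a replicate block, a moderation trend, GC trend removal, and leaving out libraries.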

Additional observations from a re-analysis of the deposited data

How the results depend on the processing

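Values are log2 differences with limma adjusted p in brackets. MAT1A kept its direction and call after FIDAS-5 in 10 alternatives (0.44 to 0.75), not being tested at the 5 TPM filter. Leaving out 1 library gave 0.48 to 0.66, and the call was lost without vehicle replicate 3 (0.53, 0.0706). MAT1A in JQ1 against FIDAS-5 kept direction and call in the same alternatives and without each library in turn. In JQ1 against vehicle MAT1A was never called and its sign turned without both treated libraries numbered 3 (0.012); leaving out 1 library gave -0.070 to 0.055, highest without vehicle replicate 2 and 0.012 without JQ1 replicate 3. MAT2A was called in no alternative.

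MAT2B after FIDAS-5 was called with median-of-ratios scaling (-0.73, 0.0137), quantile normalization (-0.78, 0.00857), rescaling over protein-coding genes (-0.73, 0.0190), only 6 libraries (-0.76, 0.0352), GC trend removed (-0.52, 0.00493) and without both treated libraries numbered 3 (-0.57, 0.0416). Leaving out 1 library gave -0.90 to -0.57, called without JQ1 replicate 3 (-0.76, 0.0182). After JQ1 it was called with median-of-ratios scaling (-0.54, 0.0288), quantile normalization (-0.51, 0.0323), rescaling over protein-coding genes (-0.59, 0.0317) and GC trend removed (-0.39, 0.0114). The cause was not tested.

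Between same-numbered vehicle and treated libraries, the correlations of deviations were 0.037, 0.160 and 0.005 for FIDAS-5 and -0.077, 0.033 and -0.002 for JQ1. With the replicate block, MAT2B after FIDAS-5 was called (-0.76, 0.0313) and no other MAT call changed. In JQ1 against FIDAS-5, the block gave -0.60 (0.00802) for MAT1A, 0.12 (0.652) for MAT2A, 0.21 (0.426) for MAT2B and 5052 called genes. Whether the numbers are pairs in that comparison is not known. By signs of paired differences, the exact permutation p there was 0.25 for the MAT2A to MAT1A ratio and 0.5 for MAT2A to MAT2B; 0.25 is the smallest 3 pairs allow. Genes called after FIDAS-5 numbered 2742, and 2891 with the block, 4416 with the GC trend removed, and 1639 to 3290 without 1 library, lowest without vehicle replicate 3 (1639) or FIDAS-5 replicate 3 (1640). JQ1 against FIDAS-5 gave 4726, and 2991 at the 5 TPM filter, where fewer genes were tested. The MAT2A to MAT2B log2 ratio between the compounds turned without JQ1 replicate 1 (0.030) or FIDAS-5 replicate 3 (0.15), with a range of -0.27 to 0.15 without 1 library.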
